A study of Mus musculus with 24 samples.

Results

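The baseline transcriptome of the wild-type mouse hippocampus is described here from the 6 mice labelled as complete wild type, taken by genotype alone from the 24 mice of the study. These are Egr1 wtNes Cre- mice, 3 females and 3 males, which carry neither the floxed *Egr1* cassette nor the Nestin-Cre transgene that the other groups carry alone or together. The study asked how loss of the transcription factor EGR1 in the Nestin lineage alters behaviour and hippocampal RNA in each sex, and these mice are its unmodified controls. The study calls the animals adult, and neither the labels nor its methods give an exact age or strain for these 6, although the methods name C57BL/6 N for the *Egr1* line and B6.Cg for the Nestin-Cre line. The RNA came from hippocampal tissue, so each value averages over all of its cells. The 6 mice are called female 1 to female 3 and male 1 to male 3 after their labels, which give separate numbered animals and no batch. Any spread or p-value below measures the spread between these mice.

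The hippocampus relays information through the granule cells of the dentate gyrus and the pyramidal cells of CA3, CA2 and CA1, all of which release glutamate. Interneurons that release GABA hold this circuit in check, while astrocytes, oligodendrocytes, microglia and vessels support it. Fibres from the septum, raphe, locus coeruleus and other centres bring acetylcholine, serotonin, noradrenaline and dopamine, and circulating steroids act on receptors inside its neurons.

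Markers of neurons were abundant and those of endocrine cells were at or near 0, although the labels name the cell type as endocrine beside the tissue, hippocampus. *Snap25*, a protein of synaptic vesicle fusion, stood at 1624, 1688 and 1913 CPM as the lowest, median and highest of the 6 mice. CPM is the count of a gene over the total of its library, times 1000000. Of 9 measured genes that define pituitary endocrine cells, 7 had a mean under 0.1 CPM, and among these *Cga*, *Fshb* and *Tbx19* had no count in any mouse, which allows up to 0.0220 CPM over the 6 libraries. *Pomc*, a hormone precursor also made in brain, averaged 0.824 CPM and *Tshb*, a thyrotropin subunit, 1.05 CPM. The summed level of the list was 1.01 CPM in the lowest mouse, male 3, and 2.84 CPM in the highest, female 3. All 6 libraries are therefore described as hippocampus.

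The deposited counts summed to 18817037 in male 3, the lowest, and 25335139 in female 1, the highest, with a median of 23308298.5. A single count was worth 0.0395 to 0.0531 CPM. Of 36605 listed genes, 13941 reached 1 CPM in every one of the 6 mice, and 4579 had no count in any. Protein-coding genes made up 12834 of the 13941, which is 69.3% of the 18523 that are listed, and the other 1107 included 731 long non-coding RNA genes, 214 unverified loci of the TEC class and 141 pseudogenes. A further 2547 genes reached 1 CPM in some mice only. At higher levels the numbers fell to 9536 genes with at least 10 CPM in all 6 mice, 2113 with at least 100 CPM and 70 with at least 1000 CPM. To compare genes of different size, CPM were divided by the exonic length in kilobases, and the 13941 genes had a median of 5.69 CPM per kb with quartiles of 2.25 and 13.6.

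Transcripts of the mitochondrial genome and of the synapse led the list of abundant genes. *mt-Co1* (chrM:5328-6872, build GRCm38), a core subunit of cytochrome c oxidase, was the highest of all genes, at 15183, 16702 and 17933 CPM as the lowest, median and highest mouse. Male 3 was lowest and male 2 highest. After it came *mt-Cytb*, of respiratory complex III, with a mean of 6537 ± 442 CPM (SD, n = 6), and *mt-Nd1*, of complex I, with 5189 ± 323 CPM. In all, 8 of the 20 genes of highest CPM lay in the mitochondrial genome, and 17 of these 20 genes were among the top 20 of each mouse taken alone.

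*Camk2a* (chr18:60925618-60988152), the kinase subunit central to plasticity at glutamate synapses, was the most abundant nuclear gene by CPM, with 4465, 4709 and 5713 CPM in the lowest, median and highest mouse. Female 2 was highest and male 3 lowest. The long non-coding RNA *Meg3* (chr12:109541001-109571726), transcribed from the maternal allele of an imprinted cluster, averaged 3480 ± 280 CPM. *Slc1a2*, the glutamate transporter of astrocytes, averaged 3218 ± 417 CPM, with male 2 lowest at 2543 CPM. Behind these came neuronal genes of signalling and transport. They include *Ncdn*, a neurite protein, with 2980 CPM, and *Cpe*, which trims neuropeptide precursors, with 2598 CPM. Lower in the list were the kinesin *Kif5a*, the calcineurin subunit *Ppp3ca*, the postsynaptic protein gene *Ddn*, the myelin gene *Mbp* and the nuclear RNA *Malat1*, whose mean was 2001 ± 350 CPM. *Malat1* was highest in female 1, at 2482 CPM, and lowest in female 3, at 1635 CPM.

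Division by length changed the order of the leading genes. Of the 20 genes highest in CPM per kb, 10 were also among the 20 highest in CPM, and 10 were mitochondrial. *Camk2a* moved to rank 21 in CPM per kb, *Malat1* to rank 62 and *Meg3*, with a long transcript, to rank 117. *Cpe* was the highest nuclear gene over 300 bp, with 996 ± 34.2 CPM per kb, ahead of *Nrgn*, a postsynaptic protein that binds calmodulin, with 877 ± 96.8, and *Calm2* with 868 ± 56.7. The ranges of the 6 mice for *Cpe* and *Nrgn*, and for *Nrgn* and *Calm2*, overlap. The length chosen matters, since with that of the longest transcript in place of all exons 50 of 259 named levels rose over 1.5 times, up to 3.32 times for *Oprm1*, and *Calm2* had 1057 against 877 CPM per kb for *Nrgn*. *Camk2a* had 976 CPM per kb with that length, against 650 with all exons. *Rplp1*, a ribosomal stalk protein, *Eef1a1*, the elongation factor, and *Cst3*, a secreted protease inhibitor, also entered this list, with means of 791, 748 and 672 CPM per kb.

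Very short genes need care on the scale per length. *Gm23935*, annotated as a miRNA of 57 bp and so shorter than a read of 150 bases, had the highest value of all, 14270 CPM per kb, from 813 CPM. Its CPM ran from 513 in male 3 to 1338 in female 1. *Bc1*, a small RNA of dendrites with 168 bp, averaged 1901 ± 376 CPM per kb, and the mitochondrial tRNA gene *mt-Tp*, with 67 bp, averaged 1244 ± 229 CPM per kb. These 3 were the only genes under 300 bp in the list, and how reads came to be counted in genes shorter than a read was not tested.

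**Figure D1:**
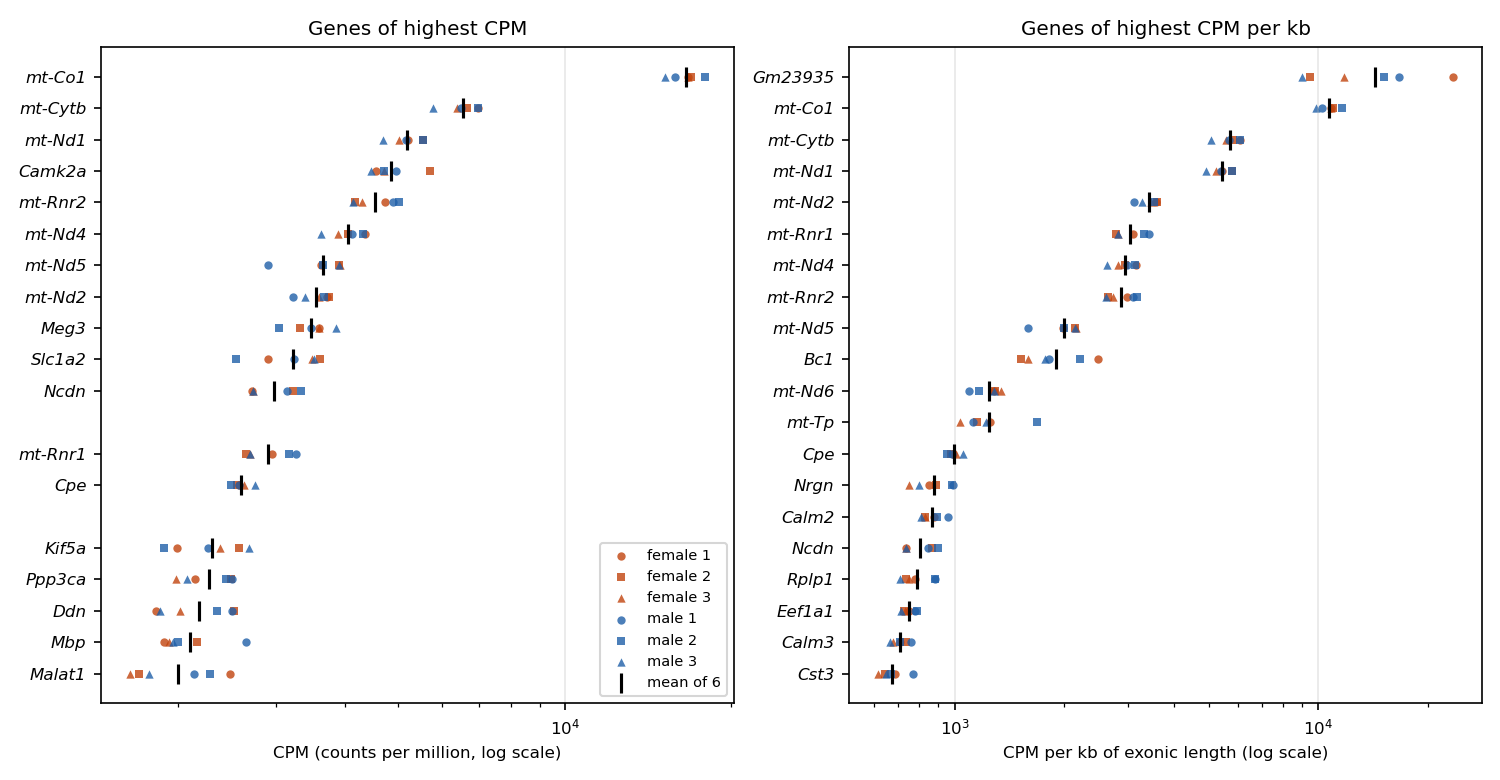
Genes of highest mean CPM (left, 18 of the top 20) and of highest mean CPM per kb of exonic length (right, the top 20) in wild-type hippocampus, on log scales. Each symbol is 1 of 6 mice (3 females, 3 males) and the bar is their mean, which for mt-Co1 is 16545 CPM and for Gm23935 14270 CPM per kb.

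Protein-coding genes held 97.0 ± 0.184% of counts (SD, n = 6), from 96.7% in female 1 to 97.2% in female 2. The mitochondrial genome, 20 listed genes, held 4.77 ± 0.233%. The 10 mitochondrial genes among the 20 highest in CPM per kb held nearly all of this share. *mt-Co2*, *mt-Co3* and *mt-Atp6* were not among them, and why they have so few counts was not tested. The share is thus that of the counts as deposited. Male 3 was lowest with 4.42% (95% Wilson interval 4.41 to 4.43) and male 2 highest with 5.10% (5.09 to 5.11). Intervals and limits of this kind cover counting error only, since reads that were copied by PCR are not independent molecules. On the scale of CPM per kb, the share of the mitochondrial genome was 14.5% and that of protein-coding genes 87.5%.

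Long non-coding RNAs took 1.69 ± 0.0782% of counts, of which the intergenic class held 1.17%. Female 1 had the highest share, 1.84%, and male 2 the lowest, 1.62%. Cytosolic ribosomal protein genes, 81 listed, held 1.06%, led by *Rpl3* with 429 CPM, while mitochondrial ribosomal RNA held 0.744%. Within the long non-coding RNAs, processed transcripts held 0.241% of counts, led by the imprinted RNA *Rian* (643 CPM), and antisense genes 0.197%, led by *B230334C09Rik* (201 CPM). Outside them, the unverified loci of the TEC class held 0.168%, led by *9330162G02Rik* (50.2 CPM). The libraries were not stranded, so where genes overlap on opposite strands their reads are ambiguous, and pseudogenes, with 0.165% in all, share sequence with their parent genes. Nuclear ribosomal RNA genes held 0.0898% and miRNA genes 0.0922%, each led by 1 gene that held most of it, *CT010467.1* with 890 CPM and the 57 bp *Gm23935* with 813 CPM. Female 1 was highest in both, with 0.128% and 0.147%, and female 2 was lowest in the former, with 0.0594%, and male 3 in the latter, with 0.0606%.

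Counts were spread over many genes. The top gene held 1.65% of counts, the top 10 held 5.59%, the top 100 held 17.9% and the top 1000 held 49.2%. It took 1048 genes to reach 50% of all counts, and 995 to 1070 in single mice. On the scale of CPM per kb 536 genes were enough.

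Markers of every major cell class of the hippocampus were measured. All 10 neuron markers, 8 of excitatory and 12 of inhibitory neurons, 9 of astrocytes, 8 of oligodendrocytes, 5 of their precursors, 9 of microglia and 8 of endothelium reached 1 CPM in all 6 mice. In bulk RNA, fewer cells of a type and less RNA per cell cannot be told apart, so none of these levels is a number of cells. Over the 13941 genes with at least 1 CPM in all 6 mice, female 3 was the lowest mouse least often, for 12.9%. Female 2 was the lowest most often, for 20.9%. The share for which a mouse was the highest ran from 11.6% in female 2 to 20.55% in male 2. Median levels per list ran from 102 CPM per kb for neuron markers through 84.2 for excitatory neurons, 69.3 for oligodendrocytes, 23.8 for astrocytes, 19.4 for inhibitory neurons, 15.0 for microglia and 8.54 for oligodendrocyte precursors to 4.29 for endothelium.

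Among neuron markers, *Snap25* was highest with 256 ± 16.7 CPM per kb, and its range lay above that of *Syn1*, a protein that tethers synaptic vesicles, with 177 ± 7.42. *Syt1*, the calcium sensor of release, followed with 168 ± 8.10 CPM per kb, and its range overlapped those of *Syn1* and of the neuronal enolase *Eno2*. With the length of the longest transcript *Syt1* had 290.5 and *Syn1* 179 CPM per kb. Summed over its 10 members the list had a CV of 3.68% over mice, where CV is the SD over the mean. The sum ran from 6685 CPM in male 2 to 7427 CPM in female 1.

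*Nrgn* and *Camk2a* led the excitatory markers, and *Slc17a7*, the vesicular glutamate transporter of hippocampal principal cells, followed with 275 ± 15.7 CPM per kb, or 481 with the length of the longest transcript. With that length *Camk2a* led the list, with 976 CPM per kb against 877 for *Nrgn*. The CPM of *Slc17a7* were 1362, 1487 and 1606 in the lowest, median and highest mouse, female 3 being lowest and male 2 highest. *Slc17a6*, the transporter of most subcortical glutamate neurons, was far lower, with 2.53 ± 1.01 CPM per kb. It varied widely, from 5.85 CPM in female 2 to 20.2 CPM in male 1. *Tbr1*, a transcription factor best known from cortical projection neurons, averaged 9.95 CPM per kb.

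Of the inhibitory markers, *Cck*, a peptide also made by pyramidal cells, was highest with 245 ± 25.9 CPM per kb, and *Sst*, the peptide of dendrite-targeting interneurons, followed with 187 ± 24.6. Although their ranges overlap, *Cck* was the higher in each of the 6 mice, and with the length of the longest transcript it had 400.5 against 187.5 CPM per kb for *Sst*. *Gad1* and *Gad2*, the enzymes that make GABA, averaged 34.0 and 22.2 CPM per kb, and the calcium buffer *Pvalb* of fast-spiking cells averaged 21.5. The ratio of *Slc17a7* to *Gad1* in CPM per kb was 6.81 in female 3, the lowest, and 9.67 in male 1, the highest, with a median of 8.20. *Calb2*, which marks a set of interneurons and mossy cells, ranged from 10.2 CPM in female 2 to 29.4 CPM in female 1. Female 2 was the lowest mouse for 6 of the 12 inhibitory markers and the highest for none, where over all genes it was lowest for 20.9% and highest for 11.6%.

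Astrocyte markers were led by *Slc1a2* with 245 ± 31.8 CPM per kb and *Aldoc*, a glycolytic enzyme, with 201 ± 12.2, whose ranges overlap. *Gfap*, an intermediate filament, averaged 81.2 ± 5.04 CPM per kb, or 129 with the length of the longest transcript. Male 2 was lowest for 7 of the 9 astrocyte markers, among them the water channel *Aqp4*, the gap junction gene *Gja1* and the transcription factor *Sox9*. Over all genes with a mean of at least 1 CPM, male 2 was the lowest mouse for 17.7%. *Sox9* ran from 22.0 CPM in male 2 through a median of 32.6 to 44.0 CPM in male 3.

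Myelin genes were highest in male 1. *Mbp*, myelin basic protein, led the list with 247 ± 34.3 CPM per kb, or 437 with the length of the longest transcript. It was at 1886, 1975 and 2654 CPM in the lowest, median and highest mouse, and male 1 stood apart from the other 5, which reached 2163 CPM at most. All 8 oligodendrocyte markers were highest in male 1, and 6 of the 8 were lowest in male 2. The summed list was 5652 CPM in male 1 and 4187 CPM in male 2, with a median of 4377 CPM. Among precursor markers, *Olig1*, a transcription factor of the whole lineage, was highest with 49.7 CPM per kb, *Gpr17*, a receptor of committed precursors, stood at 8.54 and *Pdgfra*, the growth factor receptor of precursors, at 5.94, although *Pdgfra* is the higher of this pair with the length of the longest transcript. Male 2 was lowest in 4 of these 5.

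Microglial markers were led by the complement genes *C1qa* and *C1qb*, with 29.9 ± 3.21 and 29.0 ± 2.52 CPM per kb, whose ranges overlap. *Csf1r*, the receptor that microglia need to survive, was at 75.7, 91.9 and 101 CPM in the lowest, median and highest mouse, with female 1 lowest and male 1 highest. *Aif1*, which encodes the stain target IBA1, had only 2.12 CPM per kb.

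Vascular markers varied more over the mice than those of neurons and glia. The median CV of the 8 endothelial markers was 32.5%, against 7.10% for neuron markers and 10.2% for microglia. *Flt1*, a VEGF receptor, was at 23.6, 36.9 and 68.5 CPM in the lowest, median and highest mouse. Female 1 was lowest and male 2 highest, and male 2 was also highest in 5 of the 8 markers and in the sum of the list, 258 CPM against 126 CPM in female 1. Male 1 was lowest in 4 of the 8 markers and female 1 in 2, and the sum was 136 CPM in male 1. Pericyte and smooth muscle markers ran alongside, with a sum of 146.8 CPM in female 1, the lowest, 146.9 CPM in male 1 and 199 CPM in male 3, the highest. *Vtn*, made by pericytes, was their leading gene with 26.9 ± 5.19 CPM per kb, and *Tagln*, of smooth muscle, was under 0.1 CPM.

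Fibroblast genes, which in brain mark meninges and vessel sheaths, had the widest spread of all cell classes, with a CV of 57.6% for their sum. Their summed level was 18.5 CPM in male 1 and 99.7 CPM in female 3, with a median of 56.0 CPM. *Dcn* (chr10:97479609-97518143), a small collagen-binding proteoglycan also made by some neurons, was the leading gene. It stood at 6.36 CPM in male 1, 7.44 in female 2, 24.2 in male 2, 35.5 in female 1, 52.8 in female 3 and 53.5 in male 3. Male 1 was lowest for each of the 5 fibroblast markers at 1 CPM in all mice, and female 3 highest for 4 of them.

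Markers of tissue that adjoins the hippocampus, and of blood, were listed as well. *Ttr*, the thyroxine carrier made by the choroid plexus, was at 6.31, 11.2 and 12.5 CPM in the lowest, median and highest mouse, with male 1 lowest and male 2 highest, and *Kcnj13* and *Folr1* of the same epithelium had no count in male 1. *Kl*, the member with the most CPM, is also made by neurons and averaged 25.5 CPM, from 21.6 in male 3 to 31.7 in female 2. The summed list of 8 genes had the same extremes, 35.02 CPM in male 3 and 44.83 CPM in female 2. The cilia regulator *Foxj1* of ependyma averaged 2.22 ± 0.513 CPM per kb. Globin transcripts of red blood cells summed with *Alas2* to between 47.6 CPM in male 1 and 66.8 CPM in male 2. Hypothalamic peptide genes were all under 0.6 CPM on average, led by *Agrp* with 0.558 CPM. Of 3 thalamic genes *Prkcd*, a kinase also found elsewhere, had 5.16 CPM per kb and the transcription factors *Tcf7l2* and *Lef1* had 0.645 and 0.305, or 10.03, 1.52 and 0.733 with the length of the longest transcript. Among 7 striatal genes, *Ppp1r1b*, which encodes DARPP-32, had 8.94 ± 0.769 CPM per kb. What part any of this tissue has in the spread of other genes was not tested.

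Transcripts of progenitors and new neurons were detected. *Dcx* and *Sox11*, genes of new neurons, averaged 27.3 and 27.9 CPM, and *Mki67*, of dividing cells, averaged 6.18 CPM. *Eomes*, of intermediate progenitors, averaged 0.715 CPM and did not reach 1 CPM in all mice. Their list summed to 63.1 CPM in male 1, the lowest, and 79.4 CPM in female 3, the highest.

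**Figure D2:**
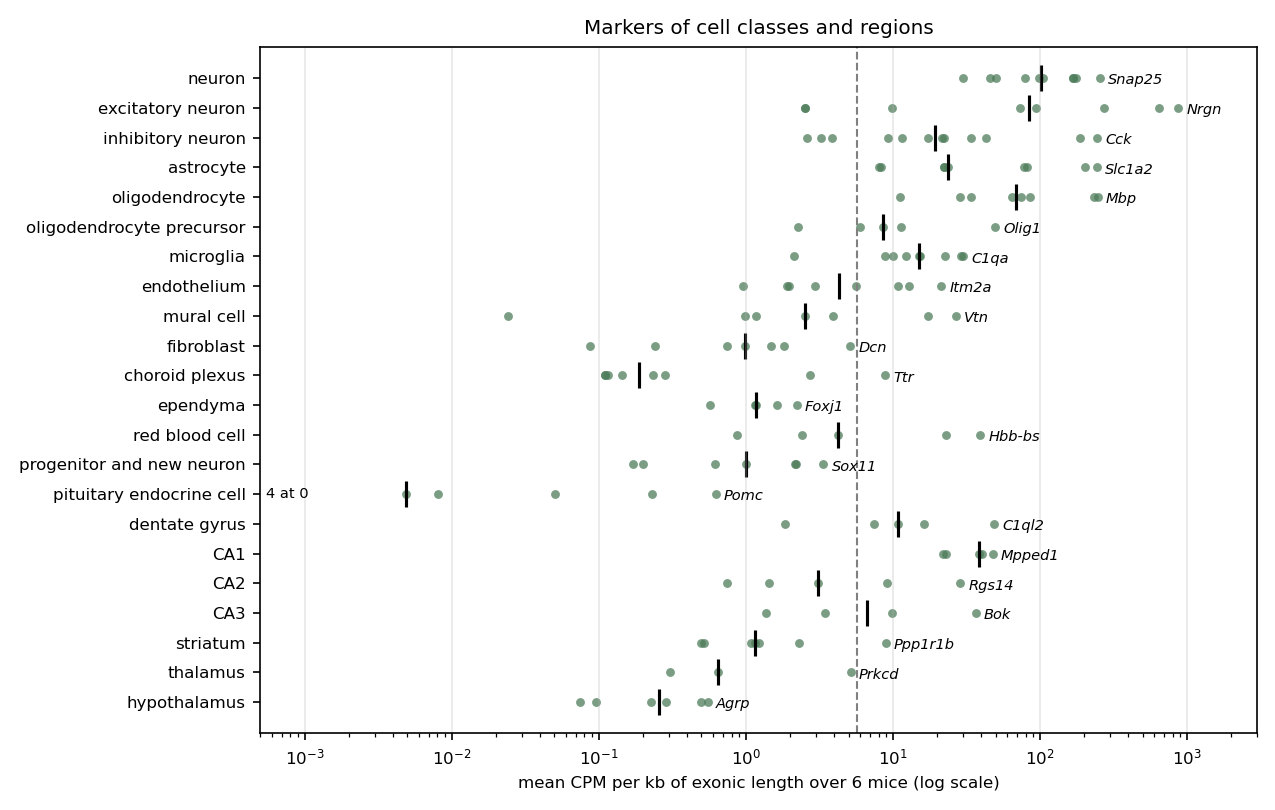
Mean level over 6 mice of each marker gene, by cell class or region, in CPM per kb of exonic length on a log scale. Each point is 1 gene, the black bar is the median of the list and the name that of its highest gene. The dashed line at 5.69 is the median of the 13941 genes with at least 1 CPM in all 6 mice, and markers at 0 are given as a number at the left.

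Genes that mark single fields of the hippocampus were all above 1 CPM. For the dentate gyrus, *C1ql2*, a synaptic organizer of granule cells, led with 49.1 ± 10.5 CPM per kb, above *Prox1*, the transcription factor that fixes granule cell identity, with 16.2 ± 2.67. *C1ql2* was at 77.2, 90.8 and 136 CPM in the lowest, median and highest mouse. Female 3 was lowest and male 2 highest, and male 2 was also highest in 4 of the 5 dentate markers. Male 3 was lowest in 3 of the 5 and in the sum of the list, with 312 CPM against 497 CPM in male 2. *Mpped1*, *Wfs1* and *Fibcd1*, of CA1, averaged 47.8, 40.6 and 38.3 CPM per kb. The range of *Wfs1* overlaps those of the other two, which do not overlap each other. *Wfs1*, a protein of the endoplasmic reticulum, ran from 135 CPM in male 2 to 183 CPM in female 2.

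*Rgs14*, a brake on plasticity in CA2, led the CA2 list with 28.6 ± 3.53 CPM per kb, or 51.0 with the length of the longest transcript, and *Amigo2*, an adhesion protein, followed with 9.16 ± 1.31. *Pcp4*, a calmodulin-binding peptide often used to mark CA2, averaged only 1.47 CPM. In CA3 the apoptosis gene *Bok* led with 36.6 ± 9.51 CPM per kb, at 45.4, 67.2 and 89.1 CPM in the lowest, median and highest mouse. Female 3 was lowest and male 1 highest, and the kainate receptor gene *Grik4*, whose CV was 6.60%, had another order of mice, with male 2 lowest and male 3 highest. How much of the spread in field markers comes from how each hippocampus was dissected was not tested.

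Receptor genes were covered by 20 families with 158 measured genes, of which 114 reached 1 CPM in all 6 mice and 14 had a mean under 0.1 CPM. AMPA receptors, which carry fast excitation, summed to between 2391 CPM in female 3 and 2568 CPM in female 2. *Gria1* (chr11:57011387-57330244) had the highest mean CPM of the subunits, with 1035, 1156 and 1225 CPM in the lowest, median and highest mouse. By CPM *Gria2* was the higher in female 3, with 1055 against 1035, and in male 3, with 1080 against 1078. Per length the subunits kept 1 order in all 6 mice with no overlap of ranges, *Gria1* at 188 ± 11.5 CPM per kb, *Gria2*, whose subunit blocks calcium entry, at 66.9 ± 2.09, *Gria3* at 23.3 ± 1.23 and *Gria4* at 8.64 ± 1.93. The ratio of *Gria1* to *Gria2* in CPM per kb was lowest in female 3 with 2.52 and highest in male 2 with 3.03, and its median was 2.92. All exons of *Gria2* span 15548 bp and its longest transcript 10371 bp, so this ratio depends on the length chosen. With the latter *Gria2* had 100.3 and *Gria3* 44.2 CPM per kb.

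NMDA receptors, the coincidence detectors of plasticity, were led by the obligatory subunit *Grin1* with 39.9 ± 3.08 CPM per kb, or 90.45 with the length of the longest transcript. *Grin2b* followed with 34.1 ± 2.40 and *Grin2a* with 23.7 ± 2.40, and the ranges of the latter pair do not overlap. The ratio of *Grin2b* to *Grin2a* was 1.36 in male 1, the lowest, with a median of 1.44, and male 3 was highest. *Grin2c* averaged 13.3 CPM per kb, and *Grin3b* did not reach 1 CPM in any mouse. Kainate and delta receptors were led by *Grik5*, a kainate receptor subunit, with 60.1 ± 3.73 CPM per kb, above *Grid1*, which links synapses, with 12.8 ± 0.302. Among metabotropic receptors *Grm5*, coupled to calcium release, led with 32.4 ± 2.18 CPM per kb. *Grm2* and *Grm3*, which lower release, followed with 15.5 and 13.2 and their ranges overlap, and *Grm6*, the receptor of retinal bipolar cells, was under 0.1 CPM.

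For GABA, 12 of 19 subunit genes of the chloride channels reached 1 CPM in all 6 mice. *Gabra5*, the subunit of extrasynaptic receptors for which the hippocampus is known, averaged 63.3 ± 2.06 CPM per kb. Its CPM were 179, 189 and 196 in the lowest, median and highest mouse, male 3 being lowest and female 2 highest. *Gabrd*, of tonic inhibition in granule cells, averaged 9.65 CPM per kb. *Gabrp* had no count in any mouse, and *Gabra6*, *Gabrr1* and *Gabrr3* were under 0.1 CPM. The GABAB genes *Gabbr1* and *Gabbr2*, whose products work only as a pair, averaged 94.3 ± 3.45 and 47.6 ± 2.55 CPM per kb without overlap. *Glrb*, which anchors glycine receptors, had 40.4 ± 2.89 CPM per kb, or 62.1 with the length of the longest transcript, while the channel-forming *Glra2* had 2.85 and *Glra1* was under 0.1 CPM.

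Among receptors of acetylcholine, the muscarinic *Chrm1*, which excites pyramidal cells, was highest with 42.5 ± 2.92 CPM per kb. Its CPM were 252, 276 and 299 in the lowest, median and highest mouse, female 3 being lowest and female 2 highest. *Chrm4* and *Chrm3* had 9.95 and 9.87 CPM per kb and overlap. With the length of the longest transcript *Chrm3* had 14.2 and *Chrm4* 9.95, and *Chrm5* and *Chrm2* had 1.36 and 1.02 with all exons. Among nicotinic subunits *Chrnb2* had 7.92 ± 0.650 CPM per kb, *Chrna7*, which forms fast calcium-permeable channels, 6.68 ± 0.422 and *Chrna4* 3.78 ± 0.965, and 7 of the 13 reached 1 CPM in all mice. With the length of the longest transcript in place of all exons, *Chrna7* led with 10.7 and *Chrnb2* had 10.4 CPM per kb.

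Monoamine receptors were led by the adrenergic gene *Adra1d*, with 35.5 ± 2.51 CPM per kb, above *Adra2c* with 10.2 ± 1.02 and *Adrb1*, a beta receptor tied to memory, with 6.91 ± 0.903. Of 13 serotonin receptor genes 11 reached 1 CPM in all mice. *Htr1a*, which inhibits pyramidal cells, led them with 8.81 ± 1.18 CPM per kb, and the next 8, from *Htr3a* with 3.98 to *Htr5a* with 2.38, overlap each with its neighbour. *Htr2c* varied most in this group of 9, at 16.1, 31.1 and 45.2 CPM in the lowest, median and highest mouse, with male 1 and female 2 low and male 3 and female 3 high. Dopamine receptors were low. *Drd5* was their highest gene with 3.19 ± 0.622 CPM per kb, without overlap above *Drd1* with 1.15 ± 0.238, and *Drd2* followed with 1.08 ± 0.314. *Hrh3*, a histamine receptor on axon ends, averaged 8.15 ± 2.48 CPM per kb, from 16.1 CPM in male 1 to 36.2 CPM in female 1, and *Hrh4* had no count.

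Opioid receptors were led by *Oprl1*, the nociceptin receptor, with 12.4 ± 1.62 CPM per kb. *Oprd1* had 3.32, and *Oprk1* and *Oprm1* had 0.150 and 0.149, so the latter pair sat near 1 CPM. With the length of the longest transcript *Oprm1* had 0.496 and *Oprk1* 0.293. *Cnr1*, the cannabinoid receptor of axon ends, averaged 32.0 ± 5.13 CPM per kb, with 162 CPM in male 1, the lowest, 209 as the median and 242 in male 3, the highest. *Adora1*, which lowers transmitter release, was at 32.3 ± 1.80 CPM per kb, and the striatal *Adora2a* was at 0.496 ± 0.199.

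Of 28 neuropeptide receptor genes, 18 reached 1 CPM in all 6 mice. *Ntsr2*, a neurotensin receptor of astrocytes, led with 46.9 ± 2.78 CPM per kb, above *Adcyap1r1*, the PACAP receptor, with 35.2 ± 3.08. *Sstr4*, through which somatostatin calms pyramidal cells, and *Npy2r*, through which neuropeptide Y limits glutamate release, had 19.9 and 19.3 and overlap. *Crhr1*, the receptor of the stress peptide CRH, was at 5.49 ± 0.605 CPM per kb. *Oxtr*, for oxytocin, averaged 8.55 CPM, and *Avpr1b*, the vasopressin receptor tied to CA2, averaged 0.827 CPM.

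Receptors for steroid and thyroid hormones included some of the highest receptor genes. *Thra* (chr11:98740638-98769006), the thyroid hormone receptor of neurons, had 141 ± 9.05 CPM per kb, or 265 with the length of the longest transcript. The mineralocorticoid receptor *Nr3c2*, which binds corticosterone already at rest, was at 34.6 ± 3.24 CPM per kb, and the glucocorticoid receptor *Nr3c1*, which needs more of it, at 12.7 ± 1.57. The ratio of *Nr3c2* to *Nr3c1* in CPM per kb was 2.39 in female 3, the lowest, 2.75 as the median and 3.09 in male 1, the highest, so all 6 mice had more of the former. The progesterone receptor *Pgr* averaged 3.11 CPM per kb. *Esr1* and *Esr2*, for estrogen, were low, with 2.32 and 0.200 CPM. *Ntrk2*, the receptor of BDNF, had 28.8 ± 2.94 CPM per kb, and *Ntrk3*, that of neurotrophin 3, 9.80 ± 0.549, or 63.55 and 15.0 with the length of the longest transcript. Among growth factor receptors *Fgfr3* and *Fgfr1* led with 16.2 and 15.4 CPM per kb and overlap, and *Fgfr1* led with the length of the longest transcript, with 30.2 against 27.3.

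**Figure D3:**
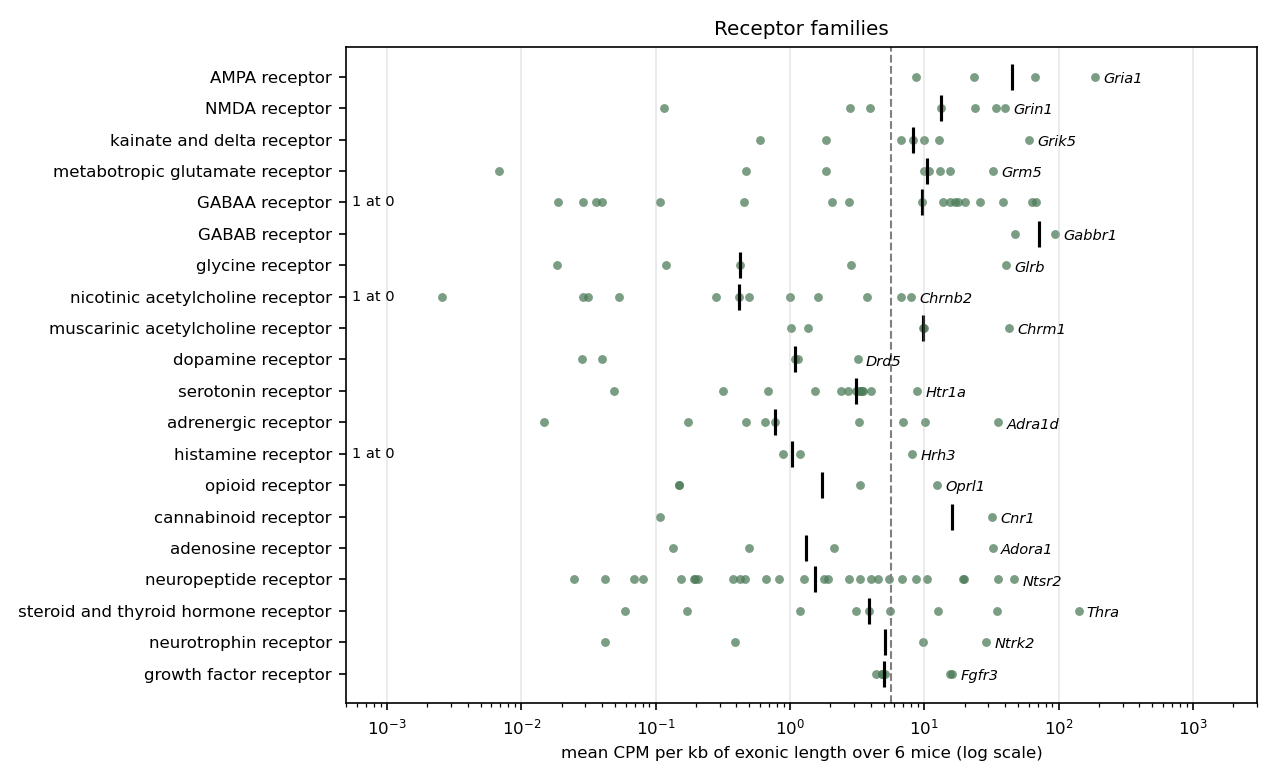
Mean level over 6 mice of each gene in 20 receptor families, in CPM per kb of exonic length on a log scale. Each point is 1 gene, the black bar is the median of the family and the name, where given, that of its highest gene, from 188 for Gria1 to 3.19 for Drd5. The dashed line at 5.69 is the median of the 13941 genes with at least 1 CPM in all 6 mice.

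Small families with similar products differed in how evenly their genes were used. *H3f3b* and *H3f3a*, which both encode histone H3.3, averaged 52.1 ± 2.67 and 38.9 ± 2.06 CPM per kb without overlap. The cytoplasmic actins *Actb* and *Actg1* averaged 431 ± 32.8 and 182 ± 7.40 CPM per kb. Among beta tubulins, *Tubb2a* had 309 ± 18.6 CPM per kb, above *Tubb4a* with 251 ± 8.68 in each of the 6 mice, and the neuron-specific *Tubb3* had 105 ± 9.54. By share of counts, with no division by length, *Tubb4a* came first with 29.2% of the set and *Tubb2a* next with 25.9%. Of 14-3-3 genes, signalling adaptors, *Ywhae* and *Ywhah* had 279 and 270 CPM per kb and overlap, above *Ywhaz* with 240 and *Ywhag* with 223. With the length of the longest transcript *Ywhah* led with 459 and *Ywhag* followed with 348, and by share of counts *Ywhag* led with 25.4%. *Sfn*, of epithelia, held 0.0271% of the counts of the 14-3-3 set. Reads that fit more than 1 paralog may be lost or misplaced, and this was not tested.

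Spread between the 6 mice was small for most genes. Of 10052 genes with a mean of at least 10 CPM the median CV was 7.91%, with quartiles of 5.71% and 10.9%. In 3931 of them, 39.1%, the highest mouse was less than 1.2 times the lowest, and in 117, 1.16%, it was at least 2 times the lowest. The SD within each sex gave a median CV of 7.80%. With the level the median CV fell from 21.8% for genes of 1 to 10 CPM to 8.49% for 10 to 100 and 6.20% for 100 to 1000, and it was 6.76% above 1000 CPM, where counting error alone gives 0.553%. Each pair of mice differed by at least 6.52 times the variance of counting.

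At the other end are the genes of smallest CV, of which 6 of 10 had a CV below that of counting error alone, so their order is not a ranking of biological evenness. *Tial1*, an RNA-binding protein, had the smallest CV among genes of at least 50 CPM, 0.932%, with 133, 134 and 136 CPM in the lowest, median and highest mouse, where counting error alone gives 1.82%. *Csdc2*, *Lrrc4*, a synaptic adhesion protein, and *Gpm6a*, a membrane protein of growing neurites, followed with CVs of 1.09%, 1.38% and 1.40%. *Gpm6a* lay between 1465 CPM in female 2 and 1520 CPM in female 3. *Sec63*, *Itm2c*, *Add1*, *Slmap*, the chaperonin gene *Tcp1* and *Gtf2i* completed the 10, with CVs up to 1.57%.

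The 10 genes of largest CV, sex chromosomes left out, include *Dcn* with 70.1%, the collagen genes *Col23a1* with 63.9% and *Col6a1* with 51.7%, and *Aebp1*, a secreted protein of the matrix, with 53.4%. *Ptgds*, the prostaglandin D synthase of meninges and oligodendrocytes, had a CV of 63.2%, with 130, 306 and 694 CPM in the lowest, median and highest mouse. Female 2, male 1 and female 1 were the 3 lowest mice, and female 3 was highest. The transcription factor genes *Nr2f2* and *Plagl1* had CVs of 47.4% and 47.6%. In 6 of the 9 genes other than *Gm13394*, whose lowest mice had 1 and 2 counts, female 2 and male 1 were the pair of lowest mice, and over all genes with a mean of at least 10 CPM they were so in 9.40%, where the mean of the 15 pairs is 6.67%.

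Single mice stood out in the rest of these 10 genes. *Gm13394*, a pseudogene, had a CV of 242%, as 88.4 CPM in male 3 compare with at most 0.289 CPM in the other 5. *Tmem267* was at 31.8 CPM in female 1 and at most 13.6 CPM elsewhere, and *Gm26917* was at 43.9 CPM in female 1 and at most 22.3 CPM elsewhere.

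Immediate early genes, which neurons switch on within minutes of firing, were mostly lowest in male 2. *Arc* (chr15:74669083-74672570), whose product trims AMPA receptors from synapses, was at 106, 219 and 252 CPM in the lowest, median and highest mouse. Male 2 was lowest and the next mouse, female 3, was at 199 CPM. *Fos* (chr12:85473890-85477273), a subunit of the AP-1 factor, was at 7.42 CPM in male 2, 17.3 in male 1 and 26.7 to 37.0 in the other 4. *Npas4*, the factor that tunes inhibitory synapses, was at 7.16 CPM in male 2, 15.4 in male 1 and 22.3 to 27.4 in the other 4. The nuclear receptor *Nr4a1* was at 54.6 CPM in male 2 and at 102 to 127 CPM in the others.

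In all, male 2 was the lowest mouse for 13 of the 15 early genes, against 17.7% of all genes with a mean of at least 1 CPM. *Egr1*, the gene that the study deletes in other mice, was at 64.0, 111 and 148 CPM in the lowest, median and highest mouse, male 2 being lowest and male 1 highest. Its relatives *Egr2*, *Egr3* and *Egr4* were lowest in male 2 too, with 3.18, 131 and 47.8 CPM. Exceptions were *Jun* and *Btg2*, both lowest in male 1, and *Jun* was highest in male 2, with 121 CPM. Male 1 was highest for *Egr1*, *Egr3* and *Egr4* but the second lowest mouse for *Fos*, *Npas4*, *Nr4a1*, *Junb*, *Ier2* and *Dusp1*, so the genes did not share 1 order of mice. Highest values lay in male 3 for 7 of the 15 genes, against 18.4% of all genes. Per length *Arc* led the list with 67.4 ± 17.1 CPM per kb, ahead of *Junb* with 39.9 ± 8.59, and their ranges overlap. The order of mice was found by looking at these values, and what sets it was not tested.

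*Fos*, *Npas4* and *Nr4a1* had male 2 as their lowest mouse and male 1 as the next, and the sequence just before their starts is shown. RefSeq promoters, from 250 bases before to 50 after the start on build GRCm38.p6, were found for 11 of the 15 genes, 15 promoters in all, of which 5 belong to *Egr2* and in part overlap. The letters TGACG, the core of the cAMP response element, on either strand (CGTCA on the other) occurred in 11 of these 15 promoters, which belong to 9 genes, and in 20.8% of all 32851 promoters. The full palindrome TGACGTCA, which contains TGACG, occurred in 2 of the 15, those of *Btg2* and *Dusp1*, and in 1.79% of all. TATAAA, also on either strand, occurred in 2, those of *Fos* and *Junb*, and in 13.6% of all. The CArG box, bound by serum response factor, was searched only in its strict form, with A and T alone between CC and GG. It occurred in 4, all of *Egr2*, and in 1.63% of all. Sites outside the window or with other letters are not counted, so no match does not mean that a gene lacks such a site. A match is only a run of letters, and no binding was measured. Capitals mark TGACG or CGTCA in the promoters of *Fos* (chr12:85473640-85473939, plus strand, 2 copies), *Npas4* (chr19:4989922-4990221, minus strand, 2 copies) and *Nr4a1* (chr15:101266596-101266895, plus strand, 4 copies), each written 5′ to 3′ on the strand of the gene.
Fos: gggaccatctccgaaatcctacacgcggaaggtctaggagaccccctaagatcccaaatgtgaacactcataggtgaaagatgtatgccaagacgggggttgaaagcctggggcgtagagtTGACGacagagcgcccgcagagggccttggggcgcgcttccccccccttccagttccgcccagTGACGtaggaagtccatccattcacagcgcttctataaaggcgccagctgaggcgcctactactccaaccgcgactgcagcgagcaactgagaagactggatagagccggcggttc
Npas4: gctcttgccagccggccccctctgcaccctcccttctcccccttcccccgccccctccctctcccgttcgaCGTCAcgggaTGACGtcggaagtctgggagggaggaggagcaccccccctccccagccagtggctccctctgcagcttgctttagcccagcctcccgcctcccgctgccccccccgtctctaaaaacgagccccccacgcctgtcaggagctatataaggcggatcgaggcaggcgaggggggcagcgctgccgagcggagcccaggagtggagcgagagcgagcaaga
Nr4a1: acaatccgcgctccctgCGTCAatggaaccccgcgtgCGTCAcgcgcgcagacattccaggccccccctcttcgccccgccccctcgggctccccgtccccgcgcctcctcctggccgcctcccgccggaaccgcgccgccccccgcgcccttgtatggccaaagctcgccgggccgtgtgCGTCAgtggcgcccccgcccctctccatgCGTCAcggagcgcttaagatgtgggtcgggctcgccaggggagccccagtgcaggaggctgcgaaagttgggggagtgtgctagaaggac

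Genes that respond to glucocorticoids had another order of mice. *Sgk1*, a kinase induced by corticosterone, was at 68.9, 103 and 141 CPM in the lowest, median and highest mouse. Female 2 was lowest and female 1 highest. *Tsc22d3*, also called GILZ, ran from 46.3 CPM, again in female 2, to 93.3 in male 1. *Fkbp5*, the chaperone that blunts the receptor, ran from 54.1 CPM, in female 2 too, to 85.6 in male 2. Of the 6 genes, 4 were lowest in female 2, the other being *Zbtb16*, while *Per1* and *Pdk4* were lowest in male 2. Over all genes with at least 1 CPM in all 6 mice, female 2 was the lowest for 20.9%. *Per1*, a clock gene, varied least, with a CV of 4.73%.

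**Figure D4:**
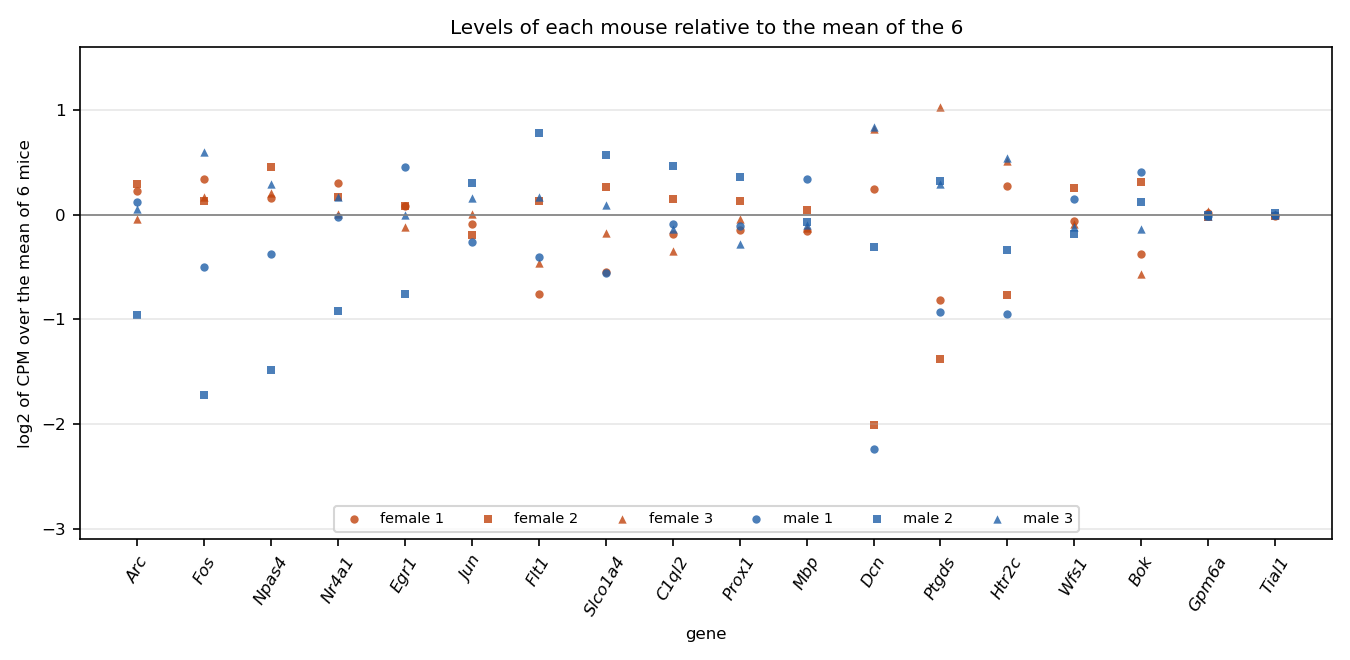
Level of each mouse relative to the mean of the 6, as log2 of its CPM over the mean CPM, for early genes (Arc to Jun), endothelial, dentate, myelin, matrix and other variable genes, CA1 and CA3 genes and, at the right, 2 of the most even genes. Each symbol is 1 mouse; Fos is at 7.42 CPM in male 2 and 37.0 in male 3, and Gpm6a lies between 1465 and 1520 CPM.

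Females and males were compared across 17544 genes with edgeR, and 7 genes (0.0399%) passed both thresholds, a fold change of 1.2 or more and an adjusted p of 0.05 or less, all on the sex chromosomes. Higher in females were *Xist* (chrX:103460366-103483254), the RNA that silences 1 X chromosome, with 782 to 801 CPM in females and at most 0.626 CPM in males, and *Eif2s3x*. *Kdm5d*, *Eif2s3y*, *Uty*, *Ddx3y* and *Gm29650* of the Y chromosome had no count in females, which allows up to 0.0404 CPM over the 3 of them. *Eif2s3x* (chrX:94188707-94212862), a translation initiation factor that escapes X inactivation, had 73.0, 77.7 and 86.4 CPM in the females, while the males had 46.4, 48.2 and 52.2 CPM. The sexes did not overlap, with higher values in 3 of 3 females. Its log2 fold change was 0.70 ± 0.08 (SE) with an adjusted p of 0.00708 in edgeR, and this ranged from 4.66e-11 to 0.0924 over the alternatives. The call was lost without female 2 (0.0566), female 3 (0.0756), male 1 (0.0699) or male 2 (0.0924), while the log2 fold change was then 0.699, 0.639, 0.696 and 0.662.

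With edgeR and its filter, no member of the lists of cell classes, fields, receptors or early genes was called between the sexes. Of the 350 list members measured, 309 were tested by edgeR and 0 were called. Unadjusted p was under 0.05 for 9 of them, 2.91%, against 591 genes or 3.37% of all tested. DESeq2 called 0 of them, against 0.0344% of all genes it tested. With no filter on low counts, edgeR called 6, against 0.106% of all, and these were the early genes *Arc*, *Fos*, *Npas4* and *Nr4a1*, endothelial *Flt1* and *Zbtb16*. In these 4 early genes male 2 was the lowest mouse and the ranges of the sexes overlap. *Fos* was at 26.7 to 30.9 CPM in females and at 7.42, 17.3 and 37.0 CPM in males. Without the filter edgeR also gave far smaller p, for *Kdm5d* 8.53e-285 against 1.28e-11 with it. These calls are therefore not read as sex differences. A p over the threshold does not show that a gene is equal in both.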

How the data were processed

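The counts of reads per gene are those the authors deposited. They made them from polyA RNA, sequenced as non-stranded paired reads of 150 bases, trimmed with Trim Galore 3.8.2 and aligned and counted with STAR 2.7.9, according to the deposited notes. The paper gives other versions of both tools, and the annotation used is not named. Here CPM and CPM per kb were computed with Python 3.11.15, pandas 2.3.3, numpy 2.4.6 and matplotlib 3.10.9, using names, classes and union exonic lengths of GENCODE M21 on GRCm38. Of the 36605 genes, 112 had no match in that annotation. Females and males were compared with edgeR 4.0.16 in R 4.3.3 (quasi-likelihood, TMM factors, filter at 10 counts), and DESeq2 1.42.0, without that filter, was an alternative. The code was checked on simulated data. Genes are named by rule: the 20 highest on each scale, the 10 of largest CV from 10 CPM and of smallest CV from 50 CPM, the leading gene of each class, all called genes, the 3 highest of each list and all members of short lists. Some genes that the rule names are left out of text and figures. Other genes were named after their values were seen. Members and lists were chosen with earlier results of these data known.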

Additional observations from a re-analysis of the deposited data

Results flagged for a closer look

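In 18 of 224 sets of values tested (8.04%), 1 mouse lay far from the other 5, with a gap to its nearest neighbour that took most of the whole range (above the 95% limit of Dixon for 6 values). The sets include 20 genes named for their large or small CV, and without these the share was 13 of 204 (6.37%), where chance alone would give about 1 in 20. Male 2 was that mouse in 9 of the 18. All values are CPM.

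Male 1 was low for *mt-Nd5* (2910.1, next 3629.5) and high for the myelin genes *Mbp* (2654.4, next 2163.3) and *Mobp* (757, next 585). Male 2 was high for the short *mt-Tp* (113, next 84.1), endothelial *Ly6c1* (32.9, next 22.0), *Mki67* of dividing cells (8.45, next 6.22) and the glutamate receptor *Grm2* (90.0, next 75.6). It was low for *Slmap* (118, next 122), the lineage factor *Olig2* (22.0, next 28.4), *Gpr17* (40.9, next 44.5), *Gria3* (206, next 233) and *Arc* (106, next 199).

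Female 1 was high for *Tmem267* (31.8, next 13.6), *Gm26917* (43.9, next 22.3) and the 14-3-3 gene *Ywhab* (713, next 651). Female 2 was low for *Csdc2* (93.0, next 94.9). Female 3 was low for *Fibcd1* (151, next 185), and male 3 high for *Gm13394* (88.4, next 0.289). For *Csdc2*, *Slmap* and *Gpr17* the gap was under 2 SD of counting error, so counting alone could give it. No mouse was left out because of these values.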

How the results depend on the processing

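With DESeq2, run without the filter at 10 counts, 11 genes were called between the sexes, and with edgeR without that filter 34, against 7 in the main analysis. All 7 were among them in both. DESeq2 added *Ddx3x*, *Kdm6a*, *Slc2a1* and *Gm43305*. A replicate block, which pairs females and males of the same number, gave 8 genes, and DESeq2 size factors gave 8. Leaving out 1 mouse at a time gave 6 to 9, and the loss of *Eif2s3x* without any 1 of 4 mice is given above. The residuals of same-numbered mice had r of 0.104, -0.0139 and 0.180, and female 2 had its highest r, 0.0423, with male 1.

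On the scale of CPM per kb, protein-coding genes held 87.5%, the mitochondrial genome 14.5% and long non-coding RNAs 2.36% of the sum, and 536 genes held 50% of it. The cause of the changes with DESeq2 and without the filter was not tested, while those per kb follow from the weight that the scale gives to short genes. For counts not divided by length, leaving out 1 mouse moved the shares little from 97.0%, 4.77% and 1.69%. They then lay between 97.0% and 97.1%, 4.71% and 4.85%, and 1.66% and 1.71%. The number of genes that hold 50% of counts, 1048 with all mice, was then between 1043 and 1058.

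Genes at the threshold in all 6 mice numbered 15185 at 0.5 CPM and 12745 at 2 CPM in place of 13941. The median CV was 7.88% with TMM factors and 7.49% to 7.90% with 1 mouse left out. Lengths of the longest transcript moved 111 of 259 named levels by more than their SD, 50 of them upward by over 1.5 times, and changed the leading gene of 5 of 50 lists.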

Other observations

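*Tuba1c*, 1 of the 4 listed alpha tubulins, had 27.5 CPM in female 3 and 22.2 CPM in male 1, and under 0.8 CPM in the other 4. The genes that follow lie outside the rule and were noticed only after their values were seen. *Col6a4* had 0.330 CPM in female 3 and at least 8.13 CPM in the others. *Gm10036* had 0.0789 CPM in female 1 and at least 5.81 CPM in the others. *Gm5514* had 11.6 CPM in male 3 and at most 0.530 CPM in the others. *Lars2*, a mitochondrial tRNA synthetase, ran from 263 CPM in male 3 to 707 CPM in female 1, the mouse that was also highest for *Gm23935*, *Gm26917* and the ribosomal RNA gene *CT010467.1*. *Dlk1*, an imprinted gene, ran from 0.385 CPM in male 1 to 10.9 CPM in female 3 and still higher in male 3. What lies behind these values was not tested.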
